A study of Mus musculus with 4 samples.

Results

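The clustered protocadherins are cell surface adhesion proteins encoded by 3 neighbouring gene clusters, alpha, beta and gamma. The members were taken by symbol, as every gene whose name began with Pcdha, Pcdhb or Pcdhg. There were 58 of them among 24445 genes: 14 alpha, 22 beta and 22 gamma members. Their levels were compared between wild-type (WT) and Tet2 KO mouse myoblasts.

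Each clustered protocadherin gene starts at a promoter of its own. In neurons, single cells use a few of these promoters, and the proteins bind only matching partners on another cell, which lets a neuron tell its own branches from those of others. The use of a promoter depends on DNA methylation, which silences it, and on CTCF and cohesin, which fold the DNA so that an enhancer can reach it. Alpha members join their variable first exon to shared constant exons, gamma members do the same with a constant part of their own, and beta members have no constant part. Tet2 is an enzyme that oxidises methylated cytosine, an early step in the removal of DNA methylation.

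All mice were C57BL/6, and the study's general methods give males aged 8 to 10 weeks unless stated otherwise. Satellite cells are the resident stem cells of muscle fibres. They were isolated from the hindlimbs by the absence of propidium iodide, CD45, CD11b, CD31 and Sca1 and the presence of CD34 and integrin alpha 7, and were then grown on collagen for at least 3 days until they were MyoD-positive myoblasts, in a medium that keeps them dividing. RNA of 2 WT and 2 Tet2 KO libraries was sequenced. In the Tet2 KO mice exon 3 of Tet2 was deleted in the whole animal, so the cells had lacked Tet2 since before they were isolated. The labels do not say whether the libraries of a group came from separate mice.

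The table gave a single FPKM value (fragments normalised to transcript length and sequencing depth) per gene and group, made from both libraries of that group. No spread between libraries could be computed. The differences below are therefore descriptions with no test. Ratios are log2((Tet2 KO FPKM + 0.1) / (WT FPKM + 0.1)), and a member was counted as past 2-fold only if its mean FPKM over both groups was at least 0.5. The pseudocount of 0.1 draws the ratios of low genes towards 0. The smallest steps between low FPKM values corresponded to about 56200000 fragments for Tet2 KO and 57100000 for WT, over both libraries of each group.

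The libraries carried the marks of myoblasts. Myod1 was at 336 FPKM in WT and 313 in Tet2 KO, and all 6 myoblast markers had ratios between -0.27 and -0.02. Their summed FPKM was 1153 in WT and 1028 in Tet2 KO. The 9 leukocyte markers were all past 2-fold higher in Tet2 KO, with a summed FPKM of 111 in WT and 439 in Tet2 KO. Lyz2, the lysozyme gene of myeloid cells, was the most abundant of them, at 59.5 in WT and 253 in Tet2 KO, and the ratios ran from 1.06 (Cd68) to 2.21 (Itgam). Of the fibroblast markers, 4 of 5 passed the filter and all 4 were higher in Tet2 KO, from 0.17 to 1.13, with a summed FPKM of 158 in WT and 183 in Tet2 KO. Dcn was the 1 of these past 2-fold, at 3.15 in WT and 7.04 in Tet2 KO. Summed FPKM of the 6 neuron markers was 10.6 in WT and 13.2 in Tet2 KO. Nefl made up most of it, at 10.3 in WT and 12.6 in Tet2 KO, a ratio of 0.29. The neuron markers other than Nefl were all below 0.5 FPKM in both groups, with Rbfox3, a marker of mature neurons, at 0.0134 in WT and 0.0263 in Tet2 KO. Summed FPKM of the 5 endothelial markers was 6.36 in WT and 9.82 in Tet2 KO. The difference lay in Cd34, at 3.03 in WT and 6.74 in Tet2 KO, which was also a marker the satellite cells were sorted for. Pecam1 was at 1.63 in WT and 1.48 in Tet2 KO and Cdh5 at 0.481 in WT and 0.334 in Tet2 KO, and the median ratio of the 3 endothelial markers that passed the filter was 0.04. Summed FPKM of the 5 Schwann cell markers was 6.37 in WT and 6.03 in Tet2 KO. Tet2 itself was at 6.64 FPKM in WT and 5.79 in Tet2 KO. That value covers the whole gene and so does not check the deletion of a single exon.

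In bulk RNA, a lower level can come from fewer cells that use a gene or from less RNA in each cell, and these cannot be told apart.

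No clustered protocadherin was past 2-fold in either direction. Among all 12681 genes that passed the same filter, 3.57% were past 2-fold higher in Tet2 KO and 1.98% past 2-fold lower. The clusters differed mainly in level. The alpha cluster was almost silent, the beta cluster was low with its last members the most abundant, and the gamma cluster carried most of the signal through Pcdhgc3. Summed FPKM of the alpha cluster was 0.25 in WT and 0.216 in Tet2 KO. For the beta cluster it was 29.3 in WT and 22 in Tet2 KO. For the gamma cluster it was 66.0 in WT and 67.5 in Tet2 KO. The beta sum in Tet2 KO was thus 75% of that in WT, a log2 ratio of -0.41, against 102% and 0.03 for gamma. Beta members made up 30.6% of all clustered protocadherin FPKM in WT and 24.5% in Tet2 KO.

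**Figure D1:**
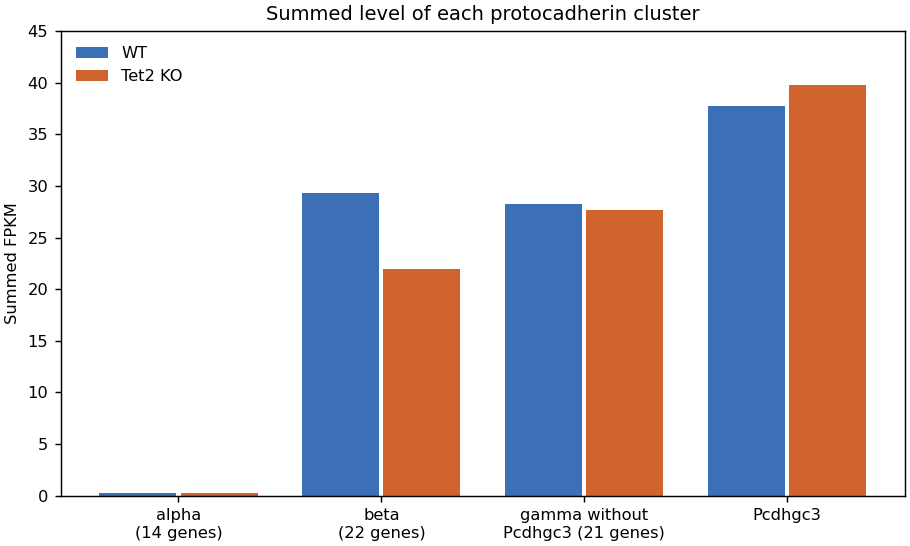
Summed FPKM (y axis) of the alpha, beta and gamma members in WT (blue) and Tet2 KO (orange), with Pcdhgc3 drawn apart from the other 21 gamma members. Each bar is a sum of 1 value per gene with no error bar, since no value per library was at hand. The beta bars stand at 29.3 and 22, while the other pairs lie close to each other.

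All 58 members carried the same locus string, which covers chr18:37089939-38001526 in mm9 with bases counted from 1, a stretch of 911588 bases. It was the most crowded of the 21216 locus strings in the table and held 63 genes, the next one 61. The string thus gives the merged region and not the position of any 1 member. The other 5 genes in it were Slc25a2, Taf7 and 3 predicted genes. Slc25a2, a mitochondrial ornithine carrier gene that lies between the beta and gamma clusters, was at 0.541 FPKM in WT and 0.766 in Tet2 KO. Taf7, a subunit of the general transcription factor TFIID and also in that gap, was at 6.01 in WT and 5.48 in Tet2 KO. These had ratios of 0.43 and -0.13. The 3 predicted genes were at or below 0.0241 FPKM in both groups.

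The alpha cluster gave too few fragments to compare. None of its 14 members reached a mean of 0.5 FPKM, and the authors' program marked none of them as having enough fragments for a test. The highest by the mean of both groups was Pcdhac2, 1 of the 2 C-type members at the end of the cluster, at 0.0332 FPKM in WT and 0.0689 in Tet2 KO. Pcdha10 was at 0.0447 in WT and 0.0385 in Tet2 KO. Pcdha9 was at 0.0520 in WT and 0.0212 in Tet2 KO. In WT, Pcdha9 and Pcdha10 were thus above Pcdhac2. Pcdha4 and Pcdha6 were listed at 0 in both groups, Pcdha7 at 0 in WT and Pcdhac1 at 0 in Tet2 KO. For an annotated alpha transcript of median length (2853 bases), 1 fragment is worth about 0.0066 FPKM in WT and 0.0067 in Tet2 KO. On that scale the whole cluster held about 38 fragments in WT and 32 in Tet2 KO. At 3 fragments, 0.0198 FPKM in WT and 0.0202 in Tet2 KO, 10 of the 14 members were below the line in each group. Differences among alpha members were not detectable at this depth.

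The beta cluster was low over most of its length, with higher levels towards its 3′ end. Its first gene, Pcdhb1, was at 0.0159 FPKM in WT and 0.00788 in Tet2 KO, as low as the alpha members. In the mouse annotation GENCODE vM1 (mm9), 20 of its 22 genes have 1 exon, and all lie on the plus strand in numerical order from Pcdhb1 (chr18:37424652-37427108) to Pcdhb22 (chr18:37678007-37681073). Pcdhb1 to Pcdhb15 were each below 1 FPKM, with 0.895 (Pcdhb14) as the highest WT value. The last 7, Pcdhb16 to Pcdhb22, were between 1.61 and 5.50 FPKM in WT and between 1.11 and 4.30 in Tet2 KO. They held 76.1% of the beta FPKM in WT and 72.7% in Tet2 KO. Across the 22 beta members, position along the chromosome and FPKM had a Spearman rho of 0.74 in WT and 0.77 in Tet2 KO. The order of the members was much the same in both groups, with a rho of 0.96 between their WT and Tet2 KO levels. These correlations are across genes that share the same libraries, and are given as descriptions.

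**Figure D2:**
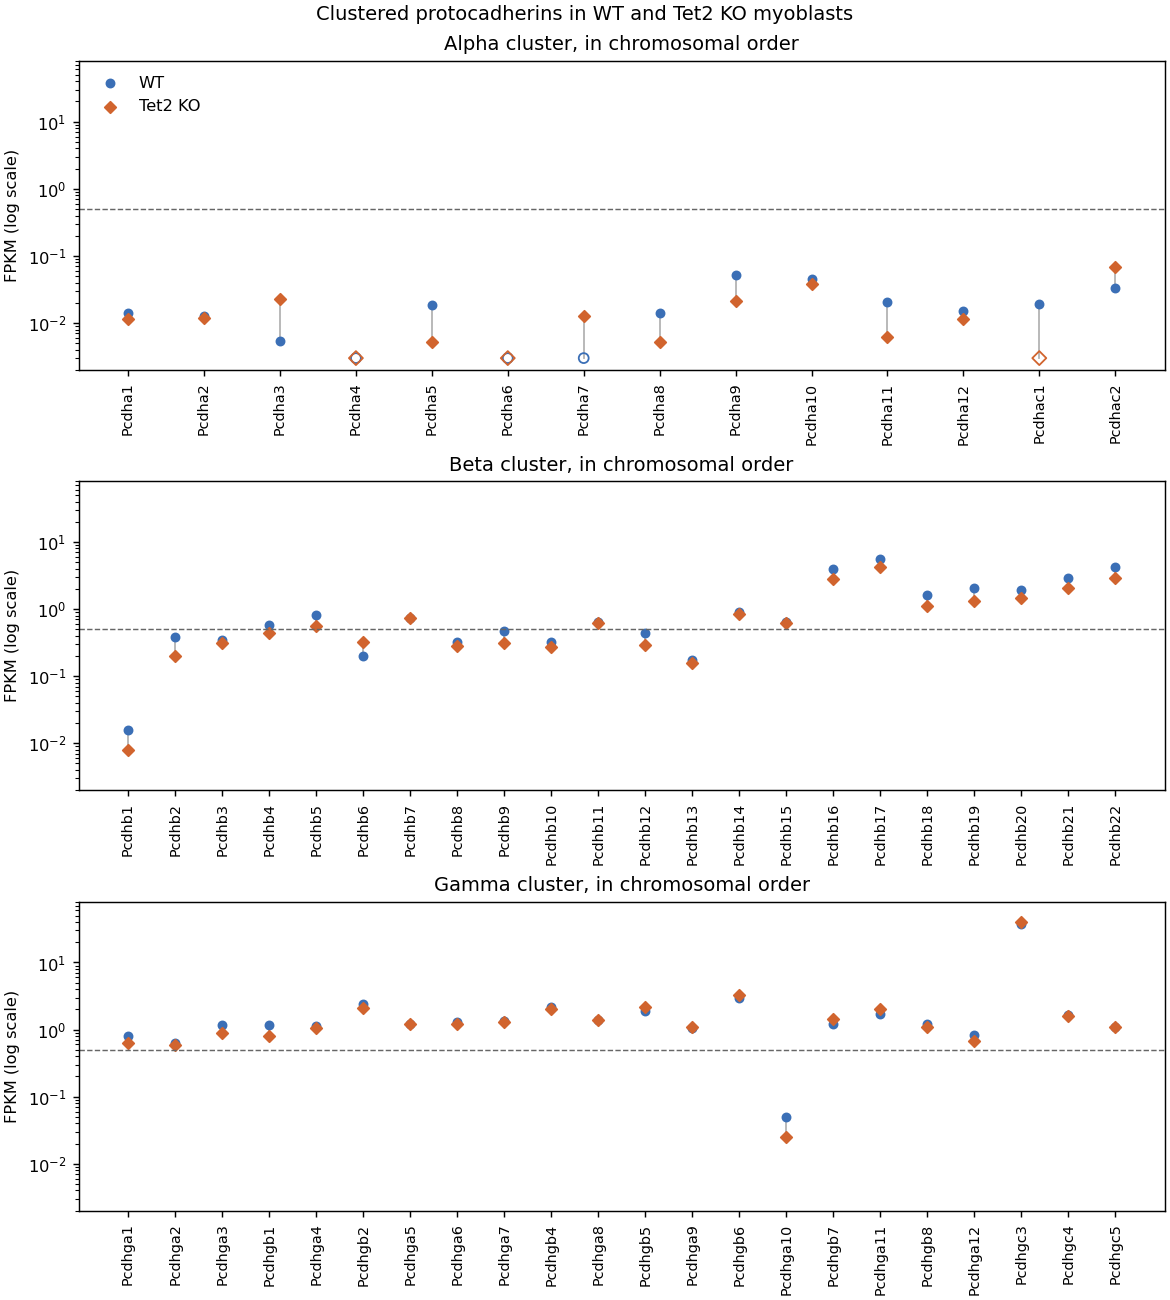
FPKM on a log scale (y axis) of each alpha, beta and gamma member, in chromosomal order (x axis), in WT (blue circles) and Tet2 KO (orange diamonds). Open symbols at the bottom are members listed at 0, and the dashed line is 0.5 FPKM. Alpha members all lie below 0.1, Pcdhb16 to Pcdhb22 lie above the other beta members, and Pcdhgc3 stands far above all.

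Pcdhb17 (chr18:37644675-37647943) was the most abundant beta member, at 5.50 FPKM in WT and 4.30 in Tet2 KO. Pcdhb22 was at 4.27 in WT and 2.87 in Tet2 KO. Pcdhb16 (chr18:37637422-37642689) was at 4.01 in WT and 2.83 in Tet2 KO. All 3 were lower in Tet2 KO, with ratios of -0.35, -0.56 and -0.49. Pcdhb21 was at 2.88 in WT and 2.04 in Tet2 KO. Pcdhb19 was at 2.05 in WT and 1.34 in Tet2 KO, the most negative ratio of the beta members that passed the filter (-0.58). Pcdhb20, annotated as a pseudogene in GENCODE vM1, was at 1.95 in WT and 1.48 in Tet2 KO. Pcdhb18 completes the block, at 1.61 in WT and 1.11 in Tet2 KO. Each of these 7 neighbours was lower in Tet2 KO by a similar amount, from -0.58 to -0.35, and their summed FPKM was 22.3 in WT and 16 in Tet2 KO.

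The members before this block were more mixed. Of Pcdhb1 to Pcdhb15, 6 passed the filter. Pcdhb5 was at 0.812 FPKM in WT and 0.561 in Tet2 KO, and Pcdhb4 at 0.585 in WT and 0.436 in Tet2 KO. These 2 had ratios of -0.46 and -0.35. Pcdhb14 was at 0.895 in WT and 0.853 in Tet2 KO. Pcdhb7 was at 0.745 in WT and 0.744 in Tet2 KO. Pcdhb11 was at 0.643 in WT and 0.621 in Tet2 KO, and Pcdhb15 at 0.640 in WT and 0.625 in Tet2 KO. These 4 lay within 0.07 of 0 on the log2 scale. The other 9 members fell below the filter. Among them Pcdhb9 had the highest level, 0.478 in WT and 0.312 in Tet2 KO, and Pcdhb2 had the most negative ratio of the cluster (-0.69), at 0.386 in WT and 0.201 in Tet2 KO. Pcdhb6 went the other way, at 0.199 in WT and 0.320 in Tet2 KO. It was the 1 beta member of 22 that was higher in Tet2 KO.

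The 13 beta members that passed the filter had a median ratio of -0.38, from -0.58 to 0.00, and all 13 were lower in Tet2 KO. Among the 3807 genes with a mean FPKM of 0.5 to 5, the range in which these 13 fell, 50.4% were lower in Tet2 KO and the median ratio was 0.00. Of the 13, 9 were lower by at least 1.2-fold, against a background of 21.5%, and none was higher by that much, against 25.2%. The 13 are members of 1 cluster measured in the same libraries. They are not independent of each other, and the shares are set side by side as a description. The bounds of 1.2-fold and of 0.5 to 5 FPKM were chosen after the values were seen. At a bound of 5/4, tried first, the beta count was also 9 of 13, against backgrounds of 18.0% lower and 22.7% higher. The ratios of the middle 9 in 10 genes of that range lay between -0.82 and 1.55, so no beta member stood outside the scatter of single genes at this level. Leukocyte markers were higher in the Tet2 KO group and myoblast markers were slightly lower there, by the values given above, and their part in the beta values was not tested.

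**Figure D3:**
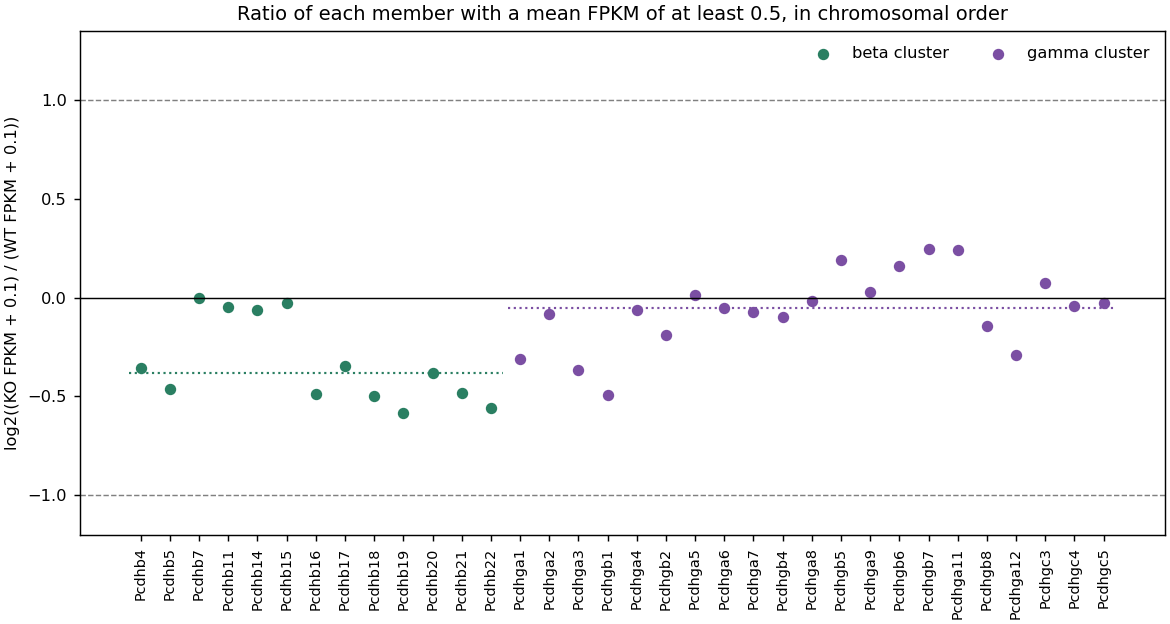
Ratio log2((Tet2 KO FPKM + 0.1) / (WT FPKM + 0.1)) (y axis) of the 13 beta (green) and 21 gamma (purple) members that passed the filter, in chromosomal order (x axis). Dotted lines are the cluster medians, -0.38 and -0.05, and dashed lines mark 2-fold. All beta points lie at or below 0, whereas gamma points lie on both sides of it.

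Because beta genes have no constant exons, their FPKM can be turned back into approximate fragments with the annotated transcript length. Over 2552 genes with a single annotated transcript, 98.1% of the 623 low values in Tet2 KO and 96.7% of the 748 in WT came out within 0.15 of a whole number. The step and a length offset were fitted to these same low values, so these shares describe the fit and are not a separate check of it. By this conversion the beta cluster held about 6426 fragments in WT and 4650 in Tet2 KO. Scaled by the fragments each group held in all, the log2 ratio was -0.44 with a 95% interval of -0.50 to -0.39 from counting error alone. Pcdhb16 rested on about 1162 fragments in WT and 805 in Tet2 KO, and its interval ran from -0.64 to -0.37. For Pcdhb22 it ran from -0.75 to -0.41, on about 700.1 and 461 fragments. With GENCODE vM1 lengths, 12 of the 22 members had an interval wholly below 0, none had one above it and 9 spanned it. All of Pcdhb16 to Pcdhb22 were among the 12. No interval was computed for genes outside the beta cluster, so the share of all genes with an interval wholly below 0 is not known. Pcdhb6, the 1 member higher in Tet2 KO, rested on about 32.0 fragments in WT and 50.5 in Tet2 KO. Its interval reached from -0.00027 to 1.36 and so spanned 0 only barely. Pcdhb1 rested on about 2.05 and 0.995 fragments and was given no interval. These intervals compare 2 pools of reads and not 2 genotypes, since they leave out the spread between libraries. PCR copies would make them too narrow. The fragment estimates scale with the annotated lengths, and the annotation behind the table is not given. RefSeq (GRCm38.p6) gives shorter genes for Pcdhb19 (4714 bases against 7131) and Pcdhb21 (2712 against 4662) and a longer one for Pcdhb6 (3579 against 3019). At its RefSeq length Pcdhb6 would rest on about 38.4 fragments in WT and 60.6 in Tet2 KO. No interval was computed at that length, and its lower limit could then lie above 0. With RefSeq lengths for the genes of 1 exon, the beta total was about 5829 fragments in WT and 4256 in Tet2 KO, and the scaled log2 ratio was -0.43.

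**Figure D4:**
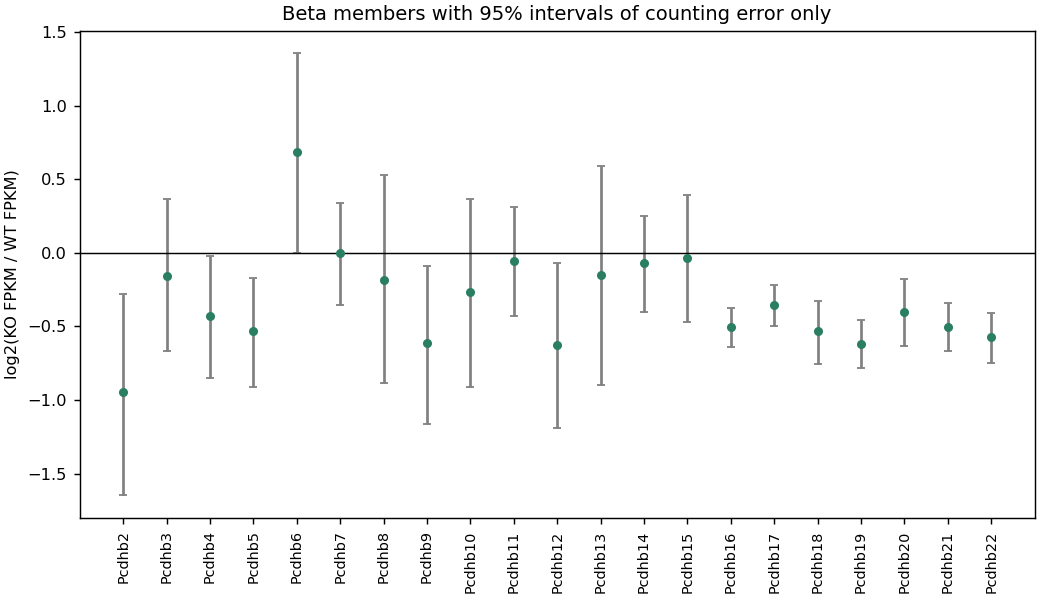
log2(Tet2 KO FPKM / WT FPKM) without a pseudocount (y axis) of 21 beta members in chromosomal order (x axis). Bars are 95% intervals of counting error only and leave out the spread between libraries. The bars of Pcdhb16 to Pcdhb22 all lie below 0, and that of Pcdhb6 is the only one centred above it.

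Beta genes resemble each other, so reads can be shared between them. Of the 22 transcripts, 21 held at least 1 stretch of 50 bases found in another beta transcript, and 11 held 1 of 100 bases. The share was small. Only Pcdhb11 (11.7% of its 50-base stretches) and Pcdhb12 (12%) exceeded 10%. Pcdhb16 had 2.03% and Pcdhb22 3.98%. Without Pcdhb11 and Pcdhb12 the ratio of the beta sums was -0.42.

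The gamma cluster was led by Pcdhgc3, a C-type member that is known to be expressed widely outside of neurons. It was at 37.8 FPKM in WT and 39.8 in Tet2 KO, a ratio of 0.08, and held 57.2% of the gamma FPKM in WT and 59.0% in Tet2 KO. Its level was 12.9 times that of the next gamma member, Pcdhgb6, in WT and 12.2 times in Tet2 KO. It ranked 2570 of 24445 genes by FPKM in WT and 2407 in Tet2 KO. The other C-type members were low. Pcdhgc4 was at 1.63 in WT and 1.59 in Tet2 KO, and Pcdhgc5 at 1.10 in WT and 1.08 in Tet2 KO. The 3 C-type members thus had ratios between -0.04 and 0.08.

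Gamma members of the A and B types were low and even. Their FPKM in WT lay between 0.633 and 2.92, apart from Pcdhga10, which was at 0.0496 in WT and 0.0247 in Tet2 KO and was the 1 gamma member below the filter. B-type members were at a median of 1.88 FPKM in WT and 2.0 in Tet2 KO, against 1.15 and 1.08 for the A type. Pcdhgb6 was the highest of these, at 2.92 in WT and 3.27 in Tet2 KO. Pcdhgb2 was at 2.37 in WT and 2.07 in Tet2 KO. Summed without Pcdhgc3, gamma FPKM was 28.3 in WT and 27.6 in Tet2 KO. That sum was close to the beta sum in WT (29.3) and above it in Tet2 KO (22).

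The 21 gamma members that passed the filter had a median ratio of -0.05, from -0.49 to 0.25. Of these, 14 were lower and 7 higher in Tet2 KO. Of the 20 with a mean FPKM of 0.5 to 5, 4 were lower by at least 1.2-fold and none was higher by as much, against the background of 21.5% and 25.2% given above. At the bound of 5/4 the count was 2 lower and 0 higher. The lowest ratios were those of Pcdhgb1, at 1.17 FPKM in WT and 0.805 in Tet2 KO, and Pcdhga3, at 1.18 in WT and 0.891 in Tet2 KO. Both lie near the start of the cluster. Pcdhga1, the first gamma gene, was at 0.811 in WT and 0.636 in Tet2 KO, and Pcdhga12, the last of the A type, at 0.843 in WT and 0.670 in Tet2 KO. The most positive ratios belonged to Pcdhgb7 (0.25), at 1.21 in WT and 1.45 in Tet2 KO, and to Pcdhga11 (0.24), at 1.70 in WT and 2.03 in Tet2 KO.

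Along the gamma A and B genes the ratios moved upward from the 5′ end and then down again. Of the first 9, Pcdhga1 to Pcdhga7, 8 were lower in Tet2 KO and their summed FPKM was 11.1 in WT and 9.80 in Tet2 KO. Of the other 10, Pcdhgb4 to Pcdhga12, 5 were lower and 5 higher, with sums of 14.4 in WT and 15.2 in Tet2 KO. The last pair in this run, Pcdhgb8 and Pcdhga12, had ratios of -0.14 and -0.29. Across all 22 gamma members, position and ratio had a Spearman rho of 0.46, and in the beta cluster it was -0.32. The split of the gamma genes was made after their values were seen. Neighbouring gamma members share reads, which weakens any reading of their order.

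Gamma transcripts share their constant exons, and the authors' program divided the reads of these exons among the members. In GENCODE vM1, where 10 gamma transcripts are listed under 1 gene, the exons shared between them made up a median of 44.9% of a transcript. For the 9 of 10 listed alpha transcripts that had such shared exons it was 16.1%. A change in 1 gamma member can therefore shift reads to or from another, and the sum over the cluster is less open to this than any 1 member. For the same reason no intervals were derived for alpha and gamma members, and no fragment counts for gamma members. The alpha fragments given above took 1 median transcript length for all members and are rough.

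The annotated promoters examined in each cluster held fewer CpG at the median than promoters in general. In the 300 bases from 250 before to 50 after the annotated start (mm9), beta promoters held a median of 5 CpG, from 2 to 11. Alpha promoters held a median of 9.5 and gamma promoters of 6.5, over 10 annotated starts each. These starts do not cover all of the 14 alpha and 22 gamma members. The median over 22238 protein-coding genes was 12. The letters CGCT, the core of the conserved element of these promoters and searched on both strands, were present in 21 of 22 beta, 10 of 10 alpha and 9 of 10 gamma windows, against 67.7% of all windows. Each match contains a CpG by its own letters. The 7 abundant members Pcdhb16 to Pcdhb22 held between 3 and 8 CpG. Across the 22 beta members, CpG count and WT FPKM had a Spearman rho of -0.40, which is a description over genes of the same libraries. No DNA methylation was analysed here.

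The genes on either side of the region had ratios on both sides of 0. On the alpha side, Zmat2, which encodes a zinc finger protein, was at 36.2 FPKM in WT and 35.3 in Tet2 KO, and the vault RNA gene Vaultrc5 at 16.3 in WT and 14.3 in Tet2 KO. On the gamma side, Diaph1, which encodes a formin that nucleates actin filaments, was at 6.94 in WT and 8.27 in Tet2 KO, and Hdac3, a histone deacetylase gene, at 68.4 in WT and 68.2 in Tet2 KO. Over 19 of 21 genes listed around or within the region that passed the filter, the median ratio was -0.02, with 11 lower and 8 higher. The most abundant were Ndufa2, a subunit gene of respiratory complex I, at 253 in WT and 248 in Tet2 KO, Hars, which encodes histidyl-tRNA synthetase, at 66.8 in WT and 70.2 in Tet2 KO, and the splicing factor gene Ik at 71.4 in WT and 65.3 in Tet2 KO. The 1 gene of these past 2-fold was Cd14, a receptor of myeloid cells, at 1.61 in WT and 3.80 in Tet2 KO, beside the higher values of the leukocyte markers.

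Protocadherins outside the clusters were not lower as a group. Of 15 listed in the table, 7 passed the filter, 6 of them with a higher value in Tet2 KO, and the median ratio was 0.31. None was past 2-fold. Pcdh7 was at 50.3 FPKM in WT and 62.4 in Tet2 KO, Pcdh18 at 23.2 in WT and 27.9 in Tet2 KO, and Pcdh1, which lies beyond the gamma cluster on the same chromosome, at 5.34 in WT and 6.45 in Tet2 KO. All 3 were thus above WT, on the other side of 0 from the beta members. Of 5 classical cadherins that passed the filter, 3 were lower and 2 higher, with none past 2-fold. The 2 higher ones had the wider ratios, 0.78 for Cdh11 and 0.52 for Cdh6. Cdh15, the cadherin of muscle precursors, was at 97.4 in WT and 84.3 in Tet2 KO, Cdh2, N-cadherin, at 50.3 in WT and 45 in Tet2 KO, and Cdh13, a cadherin with a lipid anchor, at 18.8 in WT and 16.1 in Tet2 KO.

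The listed genes of CTCF and cohesin and of DNA methylation and silencing that passed the filter were at similar levels in both groups. Of 10 CTCF and cohesin genes that passed the filter, none was past 2-fold, and the ratios ran from -0.07 to 0.12. Ctcf was at 33.6 FPKM in WT and 36.6 in Tet2 KO, and the cohesin subunit gene Rad21 at 66.6 in WT and 69.7 in Tet2 KO. Smc1a, another cohesin subunit gene, was at 58.2 in WT and 63.3 in Tet2 KO, and the cohesin regulator gene Pds5a at 59.8 in WT and 59.2 in Tet2 KO. The 19 genes of DNA methylation and silencing that passed the filter had a median ratio of 0.03, from -0.32 to 0.24, and none was past 2-fold. Tet2 itself, whose value is given above, is among these 19. Dnmt1, which copies methylation at replication, was at 82.8 in WT and 89.1 in Tet2 KO. Uhrf1, which recruits Dnmt1, was at 121 in WT and 134 in Tet2 KO, and Trim28, a corepressor, at 206 in WT and 205 in Tet2 KO. Dnmt3b, the methyltransferase known to act on these promoters, was at 1.26 in WT and 1.25 in Tet2 KO. Smchd1, a chromatin protein that represses the clusters, was at 38.8 in WT and 40.2 in Tet2 KO. The lowest ratio of the 19 was that of Dnmt3a, another methyltransferase, at 2.96 in WT and 2.34 in Tet2 KO. Below the filter, Dnmt3l, a cofactor of these methyltransferases, was at 0.191 in WT and 0.623 in Tet2 KO.

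The partners through which protocadherins signal, and the proteases that cut them, were present in both groups. All 18 listed genes passed the filter, with 9 lower and 9 higher, a median ratio of 0.01 and none past 2-fold. Nckap1 and Cyfip1, subunits of the WAVE complex that drives actin branching, were at 50.3 and 44.4 FPKM in WT and at 44.8 and 43.4 in Tet2 KO. Ptk2, the focal adhesion kinase, was at 34.8 in WT and 35.3 in Tet2 KO. The widest difference was in Fyn, a Src family kinase, at 27.7 in WT and 15.5 in Tet2 KO, a ratio of -0.84.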

How the data were processed

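The authors aligned RNA-seq reads to the mouse genome (mm9) with TopHat2 2.0.13 and compared the groups with Cuffdiff 2.2.1, per the submitters' processing notes and the study's methods; the gene annotation is not given in the sources used here. The deposited table holds FPKM, as 1 value per gene for each group of 2 libraries. Its other columns hold the authors' own fold change, statistic, p-value and q-value, and were not used. No value per library was analysed here, so no test, SD or count of replicates is given.

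Ratios used a pseudocount of 0.1, a minimum mean FPKM of 0.5 and a bound of 2-fold (scipy 1.17.1 and pandas 2.3.3 under Python 3.11.15). The step of low FPKM values times transcript length (GENCODE vM1) gave the fragments behind a value. Intervals are exact binomial 95% intervals of the 2 fragment estimates, rounded to whole fragments. RefSeq was used for the order of members and for the second set of beta gene lengths. Scripts were tested on simulated data.

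The members and lists were chosen with earlier results of these data known. Named were members above the filter, the highest member of each cluster below it, members past 2-fold, the 3 highest genes and those past 2-fold of each comparison list, the nearest flanking genes and Tet2. Cell type markers are given by counts, sums and ranges, with examples picked by their values. Other members below the filter and Cdh6, Cdh11, Ctcf, Dnmt3a, Dnmt3b, Dnmt3l, Smchd1 and Fyn were named after their values were seen. Alternatives were other pseudocounts, filters, scalings, folds and members left out.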

Additional observations from a re-analysis of the deposited data

How the results depend on the processing

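No paired analysis was possible because the table holds 1 pooled value per group, and for the same reason no library could be left out. With 1 setting changed at a time, no member was past 2-fold under a pseudocount of 1 or none, no filter, a minimum mean of 1 FPKM, TPM or median centring. None that passed the filter was past 1.5-fold or 3-fold. Below the filter, Pcdhb2 (-0.69) was past 1.5-fold. Without both the filter and the pseudocount, some low members were past 2-fold in either direction, such as Pcdha3 (2.08) and Pcdhb1 (-1.01). At 1.2-fold between 0.5 and 5 FPKM, a bound added after the data were seen, 13 of 33 members were lower and 0 higher. Among all 3807 genes of that range, 21.5% were lower and 25.2% higher by as much. At 5/4, tried first, 11 members were lower and 0 higher, against 18.0% and 22.7% of those genes. The beta median stayed negative under all alternatives, from -0.49 (minimum mean of 1 FPKM) to -0.25 (pseudocount of 1), and between -0.42 and -0.37 with any 1 member left out. The beta sum ratio stayed between -0.48 and -0.22, the latter without Pcdhb16 to Pcdhb22, a choice also made after the data were seen. The gamma result sat near 0: its median of -0.05 became 0.031 when the members of the locus string were summed, and its sum ratio of 0.03 became -0.034 without Pcdhgc3. Both shifts follow from the weight of Pcdhgc3 in a sum. Of 136 alternatives for single members, 134 kept sign and size within 0.25; Pcdhb7 had a ratio of -0.0028 that became 0.00029 under TPM and 0.0011 under centring. The comparison lists kept 247 of 260 values. The alpha sum ratio, at -0.15, ran from -0.36 to -0.04 and rests on about 32 fragments in Tet2 KO and 38 in WT. Depth limits the alpha members, Pcdhb1 and Pcdhga10 most, and the missing spread between libraries limits every difference.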
